A study of Homo sapiens with 20 samples.

Results

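The transcripts described here encode the NRF2 and BACH1 branch of the oxidative stress response in U2OS cells, a human osteosarcoma line. They are NFE2L2 (the gene of NRF2), KEAP1, BACH1, the small MAF genes MAFF and MAFG, and the target genes HMOX1, NQO1, GCLM, GCLC and SRXN1. These 10 genes were chosen by name, out of 14478 genes that could be tested, with earlier results of these data known. BACH1 and MAFF were in addition selected on a measured value, their rise in all 4 treatments, so their differences from control and their slopes are given as descriptions with no p-value. In the model described below, the lowest of the BACH1 differences was 0.49 (tunicamycin) and the lowest of the MAFF differences was 0.999 (hypoxia), both in log2 signal. Of the members just outside that selection, GCLC had a lowest difference of 0.41 and NFE2L2 of 0.35.

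NRF2 is a basic leucine zipper factor that pairs with a small MAF protein and binds the antioxidant response element, from which it drives glutathione synthesis, quinone reduction and peroxide repair. KEAP1 is the adaptor that hands NRF2 to a CUL3 ubiquitin ligase, and oxidants or electrophiles release NRF2 from it. BACH1 is a heme-sensing repressor that also pairs with small MAF proteins and occupies the same elements, with HMOX1 as its best known target. Small MAF proteins lack an activation domain, so their effect depends on the partner.

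RNA was measured on 20 arrays, 1 for each of 5 conditions at each of 4 times after DRB (100 ug/ml), an inhibitor of transcript elongation by RNA polymerase II. The conditions were untreated control cells, hypoxia (under 0.1% oxygen for 3 hr), tunicamycin (2.5 ug/ml for 3 hr, a blocker of N-glycosylation that loads the endoplasmic reticulum with unfolded protein), emetine (100 ug/ml for 3 hr, a blocker of translation elongation) and cells carrying the hairpin shRent1 against UPF1, the central helicase of nonsense-mediated RNA decay. The DRB times were 0 (DRB addition), 1.5, 3 and 4.5 hr. The study asked how hindering nonsense-mediated decay changes transcripts and their stability. The labels list no arrays of cells with a control hairpin, so the UPF1-depleted cells were compared with the same untreated controls as the others. Nor do the labels say whether each stress continued during DRB.

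No condition and time had a second array, so the scatter around fitted time courses stands in for replicate error, and p-values measure that scatter only. All 4 comparisons with control share the 4 control arrays. Array medians lay between 37.3 and 40.4 on the linear signal scale, and pairs of arrays correlated at 0.930 to 0.996 across probe sets. UPF1 signal in the depleted cells was 29.1% of control as a mean over the 4 DRB times. At 0 hr, where levels are compared, it was 170 against 355 in control. At the later times it was 89.4 to 94.7 against 352 to 392. The 3′ minus 5′ difference of the ACTB control probe sets, a sign of RNA integrity and priming, was 0.55 ± 0.10 log2 in control (SD, n = 4) and 0.54 ± 0.11 with tunicamycin, but 2.04 ± 0.13 in hypoxia, 2.04 ± 0.19 with emetine and 1.24 ± 0.06 in UPF1-depleted cells. The same difference for GAPDH stayed between -0.04 and 0.21. The part of this in the results below was not tested. Of 9 mesenchymal and osteoblast-lineage markers 8 were above the filter on low signals, with COL1A2 below it. Of 10 markers of other cell types, CDH1, KRT20, PTPRC, CD14, CDH5 and ALB were below it, and EPCAM (8.11), HBB (6.59), PECAM1 (6.25) and CD3E (4.90) were above it. The summed signal of the latter list lay between 9.05 and 9.49 log2 in control arrays and between 8.87 and 9.69 in the others.

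Promoter stretches of MAFF, BACH1 and GCLM are shown because these genes carry the matches among the members to the element that NRF2 and BACH1 share or to its AP-1 core, outside KEAP1. They come from RefSeq on GRCh38.p14 and are written 5′ to 3′ on the gene's own strand, with motif matches in capitals. Of the 10 genes, 9 had a promoter entry, and HMOX1 had none, so it was not searched. The entries held 14 windows in all of equal length, each running from upstream of a transcript start to just past it. Sequence farther upstream was not searched for any gene.
MAFF promoter, chr22:38201844-38201963, plus strand: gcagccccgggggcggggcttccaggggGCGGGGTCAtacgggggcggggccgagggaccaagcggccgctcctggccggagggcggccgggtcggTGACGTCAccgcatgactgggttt
BACH1 promoter, chr21:29298842-29298901, plus strand: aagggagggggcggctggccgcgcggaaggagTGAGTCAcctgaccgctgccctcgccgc
GCLM promoter, chr1:93909435-93909494, minus strand: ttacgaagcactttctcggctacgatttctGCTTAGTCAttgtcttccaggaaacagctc
In the MAFF stretch the first run of capitals is the antioxidant response element core TGACNNNGC read on the other strand, 122 bases before the start. Its second run is the cyclic AMP response element TGACGTCA, 54 bases before the start. The BACH1 capitals are an AP-1 site, TGANTCA, 48 bases before the start, and the GCLM capitals are the antioxidant response element core on the other strand, 34 bases before the start.

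Both strands of all 35116 promoter windows of the table were searched for the same letters. The antioxidant response element core was present in 13.3% of them and in 3 of the 14 member windows, those of MAFF and GCLM and 1 of a KEAP1 start, which held it at 54 and 31 bases before the start. The AP-1 site occurred in 7.71% of all windows, the cyclic AMP response element in 1.85%, and the hypoxia response element core ACGTG in 21.4%. The last was found in 3 member windows, at both MAFF starts and at MAFG. The C/EBP-ATF element TGATGNAA, present in 3.62% of all windows, was in no member window. These matches describe letters in a window and not binding.

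The arrays carried 22 probe sets that name 1 of the 10 genes alone, of which 19 passed the filter on low signals. That filter required a mean above 4.70 log2, the 40th percentile over the array's probe sets. Each gene is described by its brightest probe set, judged by the mean over arrays, and all 10 genes passed. Another 4 probe sets, of BACH1 and NFE2L2, also name other genes and were left out. A level difference is the fitted log2 difference from control at the moment of DRB addition, and a slope is the change in log2 signal per hour of DRB relative to the typical transcript, since the arrays were normalised to a common scale. A test was passed at an adjusted p of 0.05 (limma, Benjamini-Hochberg over all 14478 genes). Errors of fitted values are standard errors over 20 arrays.

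**Figure D1:**
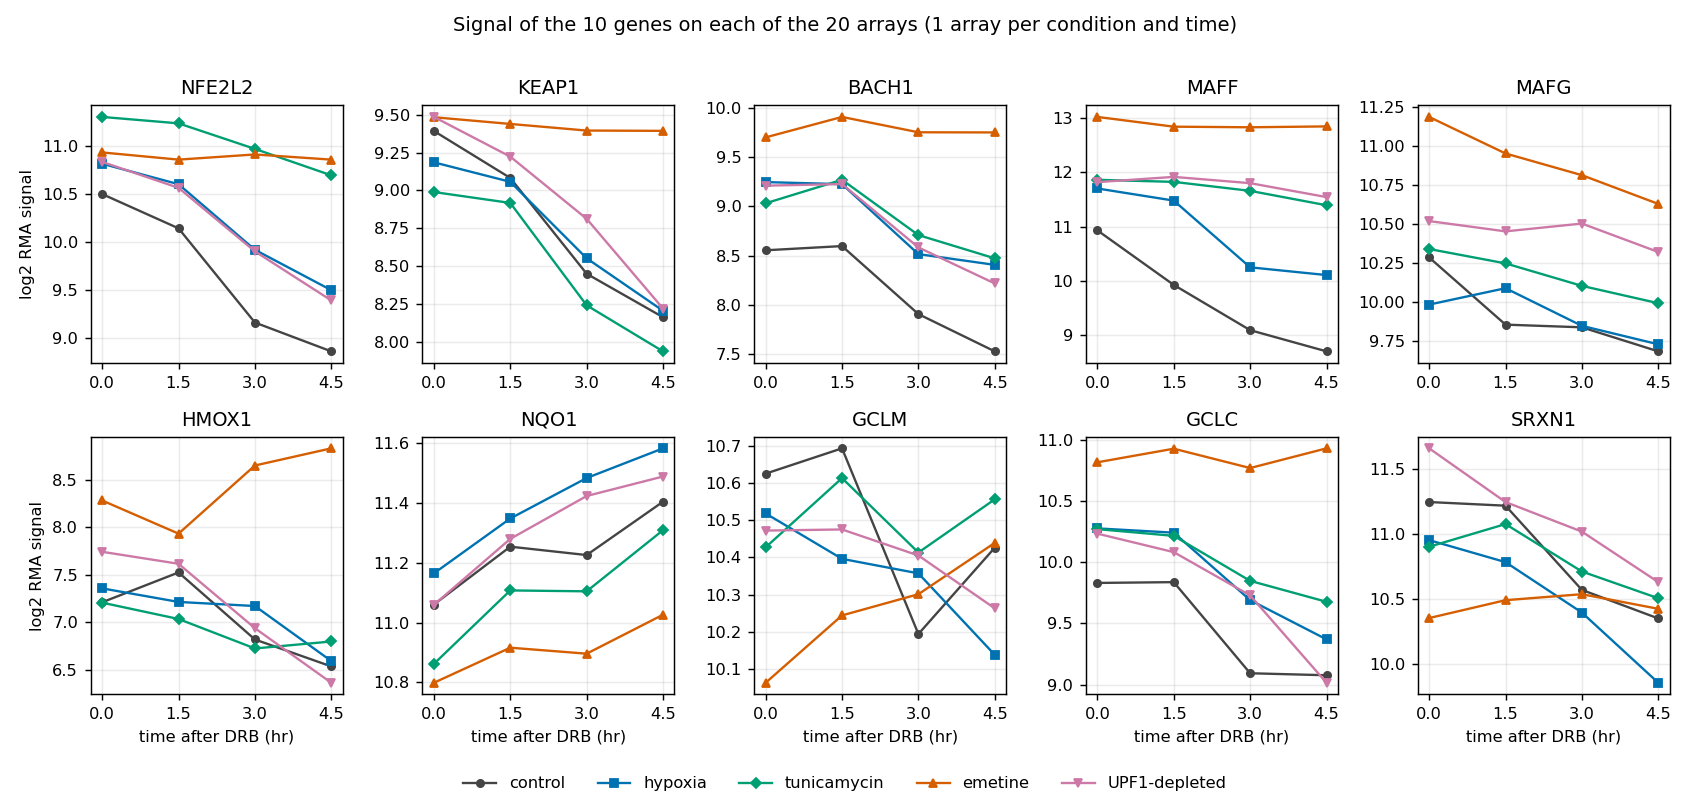
Log2 array signal of the 10 genes (1 panel each, vertical axis) against hours of DRB (horizontal axis), with 1 line per condition and 1 array per point. The control line of MAFF falls from 10.93 to 8.70 while its emetine line stays between 12.83 and 13.03, and NQO1 climbs slightly in every condition.

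Among the regulators, MAFF, BACH1 and NFE2L2 were above the control array of the same time at all 4 times in all 4 treatments. By the test, which was not applied to MAFF and BACH1, NFE2L2 rose with tunicamycin and emetine, MAFG with emetine, and KEAP1 passed in no treatment. MAFF, at chr22:38201994-38216511 in GRCh38.p14, encodes a small MAF partner of NRF2 and BACH1. In control cells its log2 signal was 10.93, 9.92, 9.09 and 8.70 over the course of DRB, from 0 to 4.5 hr. Hypoxic cells gave 11.70, 11.48, 10.25 and 10.11, and tunicamycin gave 11.87, 11.83, 11.66 and 11.39. With emetine it read 13.03, 12.85, 12.83 and 12.85, and in UPF1-depleted cells 11.82, 11.92, 11.80 and 11.55. Every treated array was above the control array of its time, and the emetine, tunicamycin and UPF1-depleted arrays lay above all 4 control arrays.

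Fitted at DRB addition, MAFF was above control by 0.999 ± 0.20 log2 in hypoxia, 1.13 with tunicamycin, 2.18 with emetine and 1.12 in UPF1-depleted cells, which is 2.0-fold, 2.19-fold, 4.53-fold and 2.18-fold. Its second probe set gave 0.93, 1.03, 2.16 and 1.03. The gap between single arrays widened over the DRB course with tunicamycin (6.49-fold at 4.5 hr), with emetine (17.8-fold) and without UPF1 (7.21-fold). In hypoxia it was 0.77, 1.56, 1.16 and 1.41 log2 in order of time, and so was widest at 1.5 hr. With 1 array left out, the level differences ranged from 0.83 to 1.43 in hypoxia, 1.01 to 1.56 with tunicamycin, 1.99 to 2.61 with emetine and 1.003 to 1.55 in UPF1-depleted cells.

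BACH1 (chr21:29298922-29361894), the repressor that competes with NRF2, stood less far above control than MAFF in log2 terms. The control arrays read 8.55, 8.60, 7.91 and 7.53 in order of time, and the hypoxic arrays 9.25, 9.22, 8.51 and 8.41. The tunicamycin arrays read 9.03, 9.27, 8.71 and 8.47. The emetine arrays read 9.70, 9.91, 9.75 and 9.75, and the UPF1-depleted arrays 9.21, 9.23, 8.58 and 8.22. Emetine arrays did not overlap those of any other condition, and each of the other treated arrays was above the control array of its time while the ranges over time overlapped control.

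The fitted level of BACH1 exceeded control by 0.62 ± 0.10 log2 in hypoxia (1.54-fold), 0.49 with tunicamycin (1.41-fold), 1.07 with emetine (2.09-fold) and 0.64 in UPF1-depleted cells (1.56-fold). A dimmer BACH1 probe set, with a mean signal of 5.48 against 8.89 log2, gave 0.05, 0.20, 0.45 and 0.13, so the size of the rise depends on the probe set. The ACTB 3′ minus 5′ difference was also higher than in control in hypoxia, with emetine and without UPF1, and its part in these differences was not tested.

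NFE2L2 (chr2:177230303-177264727), which encodes NRF2 itself, was clearly raised by tunicamycin. Control arrays read 10.50, 10.14, 9.16 and 8.86 over the DRB course, and tunicamycin arrays 11.31, 11.24, 10.97 and 10.70. Hypoxic arrays read 10.82, 10.60, 9.92 and 9.50. Emetine arrays read 10.94, 10.86, 10.92 and 10.86, and UPF1-depleted arrays 10.84, 10.57, 9.90 and 9.39. All 4 tunicamycin arrays and all 4 emetine arrays were above the highest control array, and the arrays of hypoxic and UPF1-depleted cells overlapped control.

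The level difference of NFE2L2 was 0.82 ± 0.13 log2 with tunicamycin (1.76-fold, limma adjusted p = 0.00444). It was lost without the control or the tunicamycin array at 0 hr, with a highest adjusted p of 0.121. With emetine it was 0.37 (limma adjusted p = 0.0362), but leaving out 1 control or emetine array at a time gave 0.16 to 0.47 and ended the call for the control arrays at 0 and 4.5 hr and the emetine arrays at 0, 3 and 4.5 hr. In hypoxia it was 0.35 (limma adjusted p = 0.111) and in UPF1-depleted cells 0.37 (limma adjusted p = 0.0697), neither past the test. A second, dimmer probe set gave -0.49 in hypoxia and 0.61 with tunicamycin, so the sign in hypoxia was not shared between probe sets.

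KEAP1 (chr19:10486125-10503356), the adaptor that marks NRF2 for degradation, did not pass the test at DRB addition in any treatment. At 0 hr its signal was 9.39 in control, 9.19 in hypoxia, 8.99 with tunicamycin, 9.48 with emetine and 9.48 in UPF1-depleted cells. The fitted differences were -0.15, -0.32, 0.05 and 0.15, each ± 0.12, with limma adjusted p-values of 0.473, 0.165, 0.741 and 0.441. In tunicamycin cells KEAP1 was below the control array at all 4 times, by 0.16 to 0.40 log2.

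MAFG (chr17:81918270-81931244), the other small MAF gene, was raised by emetine. Its control arrays read 10.29, 9.85, 9.84 and 9.68, and its emetine arrays 11.19, 10.95, 10.81 and 10.63, with no overlap. The difference at DRB addition was 0.98 ± 0.12 log2 (1.97-fold, limma adjusted p = 4.12e-05) and passed in every alternative run, and the second probe set gave 0.69. In UPF1-depleted cells, at 10.52, 10.45, 10.50 and 10.32, the difference of 0.34 missed the threshold (limma adjusted p = 0.0721). Hypoxia and tunicamycin gave -0.13 and 0.16 (limma adjusted p = 0.577 and 0.539).

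The target genes did not move together. With emetine GCLC was higher, while GCLM, SRXN1 and NQO1 were lower. GCLC and GCLM encode the catalytic and the modifier subunit of glutamate-cysteine ligase, the enzyme that limits glutathione synthesis. GCLC (chr6:53497341-53545101) read 9.83, 9.84, 9.09 and 9.08 in control and 10.82, 10.93, 10.77 and 10.93 with emetine, without overlap. Hypoxic arrays read 10.28, 10.24, 9.69 and 9.37, tunicamycin arrays 10.27, 10.22, 9.85 and 9.68, and UPF1-depleted arrays 10.23, 10.08, 9.73 and 9.01. These last 3 groups were above the control array of their time, except the UPF1-depleted array at 4.5 hr.

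Fitted at DRB addition, GCLC exceeded control by 0.92 ± 0.14 log2 with emetine (1.90-fold, limma adjusted p = 0.000292), and this held in every alternative run. Hypoxia gave 0.48 (limma adjusted p = 0.0648), tunicamycin 0.41 (adjusted p = 0.153) and UPF1 depletion 0.46 (limma adjusted p = 0.0535), none past the test. The hypoxia value was past it without the UPF1-depleted array at 3 hr or at 4.5 hr, and the value in depleted cells without the control or the depleted array at 3 hr. The second GCLC probe set gave 0.61, 0.52, 0.90 and 0.60 for hypoxia, tunicamycin, emetine and UPF1 depletion.

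GCLM (chr1:93885199-93909430) read 10.63, 10.69, 10.19 and 10.43 in control and 10.06, 10.24, 10.30 and 10.44 with emetine. Thus the emetine arrays were below control early in the course, at 0 and 1.5 hr, and above it by 0.11 and 0.01 at 3 and 4.5 hr. The level difference was -0.57 ± 0.13 log2 (limma adjusted p = 0.00388), and the call was lost without the control or the emetine array at 0 hr, with a highest adjusted p of 0.0923. Other GCLM probe sets gave -0.38 and 0.17 with emetine, so the direction was not shared by all of them. The remaining treatments gave -0.12 to -0.18, with limma adjusted p-values of 0.511 to 0.640.

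SRXN1 (chr20:646615-653200) encodes sulfiredoxin, which restores over-oxidised peroxiredoxins. Control arrays read 11.24, 11.22, 10.57 and 10.35, and emetine arrays 10.35, 10.49, 10.54 and 10.43. Emetine cells were thus low from the start and met the control value only as the latter fell. The fitted difference was -0.93 ± 0.13 log2 (1.91-fold lower, limma adjusted p = 0.000124) and passed in every alternative run. It was -0.30 in hypoxia, -0.31 with tunicamycin and 0.29 in UPF1-depleted cells, where arrays read 11.66, 11.24, 11.02 and 10.63, with limma adjusted p-values of 0.188, 0.230 and 0.162.

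NQO1 (chr16:69709401-69726560), a quinone reductase and common readout of NRF2, varied little by its main probe set. Its control arrays read 11.06, 11.25, 11.22 and 11.40 and its emetine arrays 10.80, 10.92, 10.90 and 11.03, below control at all 4 times. The level difference with emetine was -0.28 ± 0.09 log2 (limma adjusted p = 0.0251), and the call was lost when the control array of 0 or 1.5 hr, or that of emetine at 0, 1.5 or 4.5 hr, was left out, with a highest adjusted p of 0.228. Hypoxia, tunicamycin and UPF1 depletion gave 0.10, -0.19 and 0.01 (limma adjusted p = 0.548, 0.292 and 0.945). The other NQO1 probe sets gave 0.00 and -0.32 with emetine and -0.18 and -0.29 with tunicamycin. In the same order they gave 0.34 and 0.05 in hypoxia and 0.40 and 0.16 in UPF1-depleted cells, so these sizes depend on the probe set.

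HMOX1 (chr22:35381096-35394207) encodes heme oxygenase and is the classic BACH1-repressed gene. Its control arrays read 7.21, 7.52, 6.82 and 6.53, and its emetine arrays 8.28, 7.93, 8.65 and 8.83, all above control. Hypoxic arrays lay between 6.59 and 7.36, tunicamycin arrays between 6.72 and 7.21 and UPF1-depleted arrays between 6.36 and 7.74, all overlapping control. At 4.5 hr the emetine array was 4.91-fold above control.

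At DRB addition the fitted HMOX1 difference with emetine was 0.64 ± 0.26 log2 and missed the threshold (limma adjusted p = 0.0673), although the arrays at 0 hr themselves differed by 1.07. It passed without the control or the emetine array at 1.5 hr and turned to -0.10 without the emetine array at 0 hr. The other treatments gave 0.00, -0.26 and 0.46 for hypoxia, tunicamycin and UPF1 depletion (limma adjusted p = 0.998, 0.674 and 0.266). BACH1 and HMOX1 were thus both at their highest with emetine, while in hypoxia, where BACH1 was 0.62 above control, HMOX1 differed by 0.00.

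**Figure D2:**
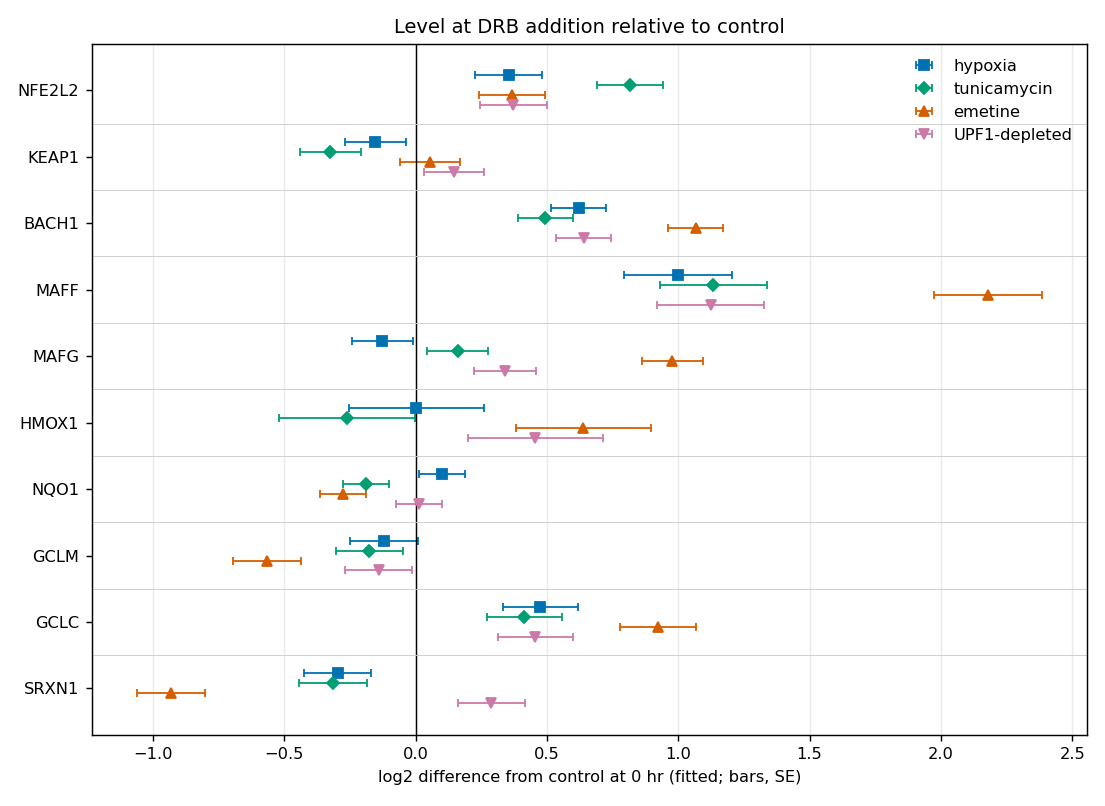
Fitted log2 difference from control at DRB addition (horizontal axis) for the 10 genes (vertical axis), with 1 point per treatment. Bars are 1 standard error of the model over 20 arrays. MAFF with emetine is the point farthest right at 2.18, and SRXN1 with emetine the one farthest left at -0.93.

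Of the 8 members other than BACH1 and MAFF, emetine raised 3 (MAFG, GCLC, NFE2L2) and lowered 3 (SRXN1, GCLM, NQO1), where 18.9% of all genes were higher and 19.8% lower. Without the control or the emetine array at 0 hr the 6 became 3. Leaving out a 0 hr array means that the level is extrapolated from later times for every gene, and the share of all genes called then is not given here. Tunicamycin raised 1 of 8, NFE2L2, against a background of 1.97% higher and 0.926% lower genes, and 0 of 8 without the control or the tunicamycin array at 0 hr. Hypoxia changed 0 of 8 by limma, with 3.21% of all genes higher and 4.44% lower. It changed 1 of 8 without the UPF1-depleted array at 3 or 4.5 hr. At an unadjusted p under 0.05 it changed 3 of 8, and 3354 of all 14478 genes. UPF1 depletion likewise changed 0 of 8 by limma, where 9.68% of genes were higher and 3.99% lower. It changed 1 of 8 without the control or the depleted array at 3 hr. At an unadjusted p under 0.05 it changed 4 of 8, and 4152 of all 14478 genes. The median difference of the 8 members was -0.06 in hypoxia, -0.18 with tunicamycin, 0.21 with emetine and 0.31 without UPF1, beside -0.02, -0.03, -0.08 and 0.01 over all genes. The 6 of 8 with emetine was a larger share than that of all genes called there, but the count was 3 with the median of probe sets. Since the members were chosen with earlier results of these data known, the larger share is not read as a result about them. The 0 or 1 of 8 elsewhere leaves little to set against the background.

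The treatments were then set against each other at DRB addition, in 6 pairs. All 10 members were tested, since the selection of BACH1 and MAFF did not use differences between treatments. It did use the same arrays, and the p-values of both genes carry that limit. Emetine stood apart from the rest. MAFF with emetine was above hypoxia by 1.18 ± 0.20 log2, above tunicamycin by 1.05 and above UPF1-depleted cells by 1.06, so that the reverse differences from hypoxia and tunicamycin were -1.18 and -1.05 (limma adjusted p = 0.000772, 0.00195 and 0.00144). The order for MAFF was emetine, then tunicamycin, UPF1 depletion and hypoxia, and the last 3 did not differ beyond the scatter (limma adjusted p = 0.693 to 0.978). BACH1 followed the order emetine, UPF1 depletion, hypoxia, tunicamycin. For it emetine differed from hypoxia by 1.36-fold, from tunicamycin by 1.49-fold and from UPF1 depletion by 1.34-fold (limma adjusted p = 0.00587, 0.00126 and 0.00647), and the other 3 did not differ beyond the scatter (limma adjusted p = 0.361 to 0.908). Each MAFF and BACH1 call was lost without the emetine array at 0 hr. Without the 0 hr array of the other treatment the MAFF calls were lost too, and the BACH1 calls against tunicamycin and UPF1 depletion.

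NFE2L2 alone was highest with tunicamycin, above emetine by 0.45, UPF1 depletion by 0.44 and hypoxia by 1.38-fold (limma adjusted p = 0.0165, 0.0316 and 0.0311). The call against emetine was lost without the tunicamycin array at 0 hr or the emetine array at 1.5 hr, and the other 2 without the tunicamycin array at 0, 1.5 or 4.5 hr, the hypoxia array at 0 or 4.5 hr and the depleted array at 0 or 1.5 hr. Hypoxia, emetine and UPF1 depletion did not separate for this gene (limma adjusted p = 0.929 to 0.978). SRXN1 was highest in UPF1-depleted cells, where it was 2.33-fold above emetine (limma adjusted p = 1.94e-05), 1.50-fold above hypoxia (adjusted p = 0.00632) and 1.52-fold above tunicamycin (limma adjusted p = 0.00784). The difference from emetine held in every alternative run, and those from hypoxia and tunicamycin were lost without a 0 hr array of either member of the pair. MAFG was below UPF1-depleted cells by 1.38-fold in hypoxia (limma adjusted p = 0.0126), lost likewise, and KEAP1 with tunicamycin was below UPF1-depleted cells by 1.39-fold (limma adjusted p = 0.0161), again lost without either 0 hr array.

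Counted over the 10 members, hypoxia and tunicamycin differed for 2 (NFE2L2, NQO1), against 13.3% of all genes. Hypoxia and emetine differed for 7, against 33% of all genes, and hypoxia and UPF1 depletion for 2 (MAFG, SRXN1), against 24.3%. Tunicamycin and emetine differed for 9, all but NQO1, against 31.8% of genes, and tunicamycin and UPF1 depletion for 3 (NFE2L2, KEAP1, SRXN1), against 16.6%. Emetine and UPF1 depletion differed for 7, against 37.5%. The 2, 2 and 3 members of the pairs without emetine leave little to set against the shares of all genes. The 3 pairs with emetine had the highest counts, but BACH1 and MAFF, selected on these same arrays, were counted in each. The emetine counts are therefore not read against the shares of all genes. These emetine counts depended on the 0 hr arrays, without which the level at 0 hr is extrapolated from later times for every gene. The share of all genes called in those runs is not given here, so the falls cannot be read as particular to the members. Without that of hypoxia or emetine the 7 became 3 or 1, and without that of tunicamycin or emetine the 9 became 2. Without that of emetine or the depleted cells the 7 became 1. The 2 for hypoxia against tunicamycin fell to 1 or 0 in 18 of 20 cases of 1 array left out, and those for hypoxia and for tunicamycin against UPF1 depletion fell to 0 without either 0 hr array.

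After DRB, most of these transcripts were lost in control cells faster than the typical transcript, and this loss was nearly absent with emetine. MAFF had the steepest control slope, -0.50 ± 0.05 log2 per hour, with 21.3% of its 0 hr signal left at 4.5 hr. NFE2L2 had -0.39 ± 0.04 (32.0% left), KEAP1 -0.29 (42.7% left), BACH1 -0.25 ± 0.05 (49.1% left), SRXN1 -0.22 (53.9% left) and GCLC -0.20 (59.3% left). HMOX1 followed with -0.18, MAFG with -0.12 and GCLM with -0.07, while NQO1 rose relative to the typical transcript by 0.07. Among the 8 members tested, 6 fell in control, where 17.5% of all genes did, with limma adjusted p-values from 4.16e-06 (NFE2L2) to 0.0392 (HMOX1).

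The control slopes of GCLM (limma adjusted p = 0.116) and NQO1 (adjusted p = 0.0469, rising) were the other members tested. The rise of NQO1 was lost without any 1 of 16 of the 20 arrays, with a highest limma adjusted p of 0.473. The fall of HMOX1 was lost without the control array at 1.5, 3 or 4.5 hr, and that of MAFG without the one at 0 hr. Other GCLM probe sets had control slopes of 0.15 each, opposite in sign to the main one. The second MAFF probe set had a control slope of -0.29 against -0.50, and the dimmer BACH1 probe set one of -0.09 against -0.25. For NFE2L2 and GCLC the second probe sets gave -0.19 and -0.14, against -0.39 and -0.20.

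With emetine no member passed the test for a falling slope, at 0 of 8 by limma, and few genes did at all, 0.325%. At an unadjusted p under 0.05 in either direction 3 of 8 passed, as did 1853 of all 14478 genes. The emetine slopes of MAFF, BACH1 and NFE2L2 were -0.04, 0.00 and -0.01 log2 per hour, with 88.6%, 103.5% and 94.9% of the signal left. HMOX1 had 146% of its 0 hr signal at 4.5 hr. By its main probe set MAFG was the exception among the members that fell in control. It had a slope of -0.12 in both conditions and 68.0% left with emetine against 65.9% in control. The second MAFG probe set had slopes of -0.13 in control and -0.05 with emetine, so the exception was not shared between probe sets.

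Slope differences between emetine and control passed for 6 of the 8 members, where 14.4% of all genes did. They were 0.38 ± 0.05 log2 per hour for NFE2L2 (limma adjusted p = 9.79e-05), 0.34 for HMOX1 (adjusted p = 0.0245), 0.27 for KEAP1 (adjusted p = 0.000653), 0.24 for SRXN1 (adjusted p = 0.00324), 0.21 for GCLC (adjusted p = 0.0131) and 0.15 for GCLM (adjusted p = 0.0414). MAFG and NQO1 gave 0.00 and -0.02, and the second MAFG probe set 0.08. For BACH1 and MAFF the differences were 0.25 ± 0.04 and 0.47 ± 0.07. The dimmer BACH1 probe set gave 0.02 ± 0.06 and the second MAFF probe set 0.27, so both sizes depend on the probe set. The second, dimmer NFE2L2 probe set gave 0.12 and the second GCLC probe set 0.11. The NFE2L2 and GCLC calls were both lost with the median of probe sets. The 6 became 3 without the emetine array at 4.5 hr. KEAP1 and SRXN1 passed in every alternative run and NFE2L2 in each case of 1 array left out, while HMOX1 was lost without the control or the emetine array at 4.5 hr, and GCLC without the control array at 0 hr or the emetine array at 4.5 hr. GCLM was the weakest of these calls: it was lost without any 1 of 12 of the 20 arrays, all 4 emetine arrays among them (highest adjusted p by limma = 0.255), and its sign turned with the median of its probe sets.

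With tunicamycin the loss of NFE2L2 was slower than in control. It had a slope of -0.14 log2 per hour against -0.39 in control, a difference of 0.25 ± 0.05 (limma adjusted p = 0.00622), with 65.5% of its signal left. This was the only slope difference past the test among 8 members, where 5.24% of genes passed. The call was lost without the control or the tunicamycin array at 0 hr, and with the median of probe sets. The second NFE2L2 probe set gave a difference of 0.16. MAFF had a slope of -0.11 with tunicamycin, 0.40 above control, and 72.2% of its signal left. KEAP1 fell by 0.26 log2 per hour with tunicamycin, a slope difference of 0.03 (limma adjusted p = 0.779). Within tunicamycin cells 3 of 8 members fell (NFE2L2, KEAP1, GCLC), where 11.4% of genes did.

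In UPF1-depleted cells the slopes of MAFF and BACH1 lay far apart, as a description with no test. MAFF had a slope of -0.06 ± 0.05 log2 per hour, 0.44 ± 0.07 above the control slope (0.32 to 0.55 with 1 array left out, 0.27 by its second probe set), and 82.6% of its signal left at 4.5 hr. BACH1 had a slope of -0.24, 0.01 from that of control, with 50.3% left. NFE2L2 fell by 0.33 (36.7% left), KEAP1 fell by 0.28, HMOX1 fell by 0.32, GCLC fell by 0.27 and SRXN1 fell by 0.22, so 5 of 8 members tested fell, where 16.5% of genes did. No slope difference passed among the 8 by limma, and over all genes 0.0414% did. At an unadjusted p under 0.05 the counts were 0 of 8 and 955 of all 14478 genes. The level of MAFF above control in these cells thus came with a flat slope and that of BACH1 with a slope like that of control.

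In hypoxia the slopes stayed near those of control. MAFF had a slope of -0.40 log2 per hour (33.0% left), NFE2L2 -0.31 (40.04% left), SRXN1 -0.24, KEAP1 -0.23, and BACH1 and GCLC -0.22 each (55.9% of BACH1 left). Of the 8 members tested 4 fell (NFE2L2, KEAP1, GCLC, SRXN1), where 14.2% of all genes did. By limma 0 of 8 had a slope difference from control, against 0.0345% of genes. At an unadjusted p under 0.05 the counts were 0 of 8 and 1498 of all 14478 genes. The MAFF slope difference of 0.10 ± 0.07 became -0.02 without the control array at 0 hr and was -0.05 by the second probe set. Including NQO1, which rose in each, 5 of the 8 members passed the slope test in hypoxia, 4 with tunicamycin and 6 without UPF1. Of all 14478 genes, 2222 rose and 2049 fell in hypoxia. With tunicamycin 1592 rose and 1646 fell, and without UPF1 1589 rose and 2389 fell. The member counts became 2, 1 and 2 without the 4.5 hr array of the same condition, which leaves little to set against those of all genes. The tunicamycin count was also 1 without its 0 hr array.

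**Figure D3:**
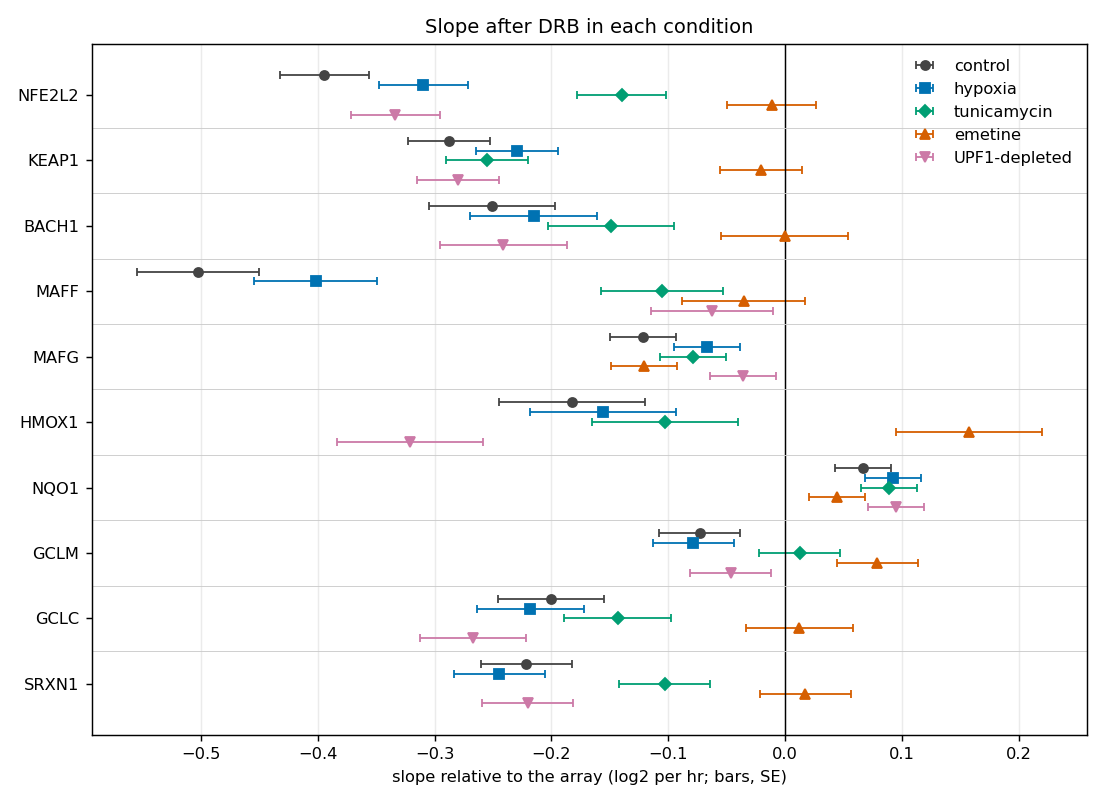
Slope of log2 signal per hour of DRB (horizontal axis), relative to the array's typical transcript, for the 10 genes (vertical axis). Each condition has 1 point, with bars of 1 standard error of the model. MAFF spreads from -0.50 in control to -0.04 with emetine, whereas MAFG and NQO1 keep similar slopes in all conditions.

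Other genes of the pathway were counted from lists that hold none of the 10 members. Of 40 further NRF2 target genes 38 were tested. With emetine 3 were higher and 14 lower, where 18.9% of all genes were higher and 19.8% lower, with a median of -0.21 beside -0.08 over all genes. SQSTM1, the autophagy receptor that binds KEAP1, was higher by 1.51 log2, from 9.98 in control to 11.64 at 0 hr, followed by ABCC2 (0.57) and IDH1 (0.45). The exporter ABCC3 was -0.996, the carbonyl reductase CBR3 -0.83 and the cystine transporter SLC7A11 -0.76. SQSTM1 and CBR3 passed in all cases of 1 array left out, and the other 4 were lost without the emetine array at 0 hr. The 3 higher targets fell to as few as 1 and the 14 lower ones to as few as 6 without the control or the emetine array at 0 hr.

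In UPF1-depleted cells 9 of the 38 targets were higher and 2 lower, where 9.68% and 3.99% of all genes were, with a median of 0.12 beside 0.01 over all genes. They were led by NMRAL2P (1.31), AKR1C3 (0.88, a gene whose close relatives can share its probes) and OSGIN1 (0.85), with GPX2 (-0.47) and PGD (-0.40) lower. All 5 were lost without the depleted array at 0 hr, and the 9 ranged from 0 to 10 with 1 array left out, moving by over 1.5 times for the control array at 0 hr and the depleted arrays at 0 and 1.5 hr. Tunicamycin raised 2 targets, SLC7A11 (0.73) and UGDH (0.71), and lowered MGST1 (-0.54), where 1.97% and 0.926% of all genes were called. Hypoxia raised IDH1 (0.56) and TXNRD1 (0.47) and lowered PGD (-0.60), where 3.21% and 4.44% were. Each of these hypoxia and tunicamycin calls was lost without the control or the treated array at 0 hr, so that both counts could fall to 0.

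Of 25 other regulators of NRF2, KEAP1 and the MAF family, 21 were tested. Emetine raised 10 and lowered 3, where 18.9% of all genes were higher and 19.8% lower, with a median of 0.31 beside -0.08. The rises were led by HBP1 (2.73), the coactivator EP300 (1.63) and SESN2 (1.19). HBP1 and EP300 passed in all cases of 1 array left out, SESN2 was lost without the emetine array at 0 hr, and without the control or the emetine array at 0 hr the 10 fell to as few as 3 and the 3 to as few as 1. SESN2, a sestrin that promotes KEAP1 removal, was the leading gene with tunicamycin at 3.93 log2, from 7.57 to 11.26 at 0 hr, and was 1.09 above control in UPF1-depleted cells, where FBXL17 (0.88), the E3 adaptor for BACH1, and FBXO22 (0.33) completed the 3 that rose. The SESN2 and FBXL17 calls in depleted cells were lost without either 0 hr array, and that of FBXO22 without any 1 of 15 of the 20 arrays. Tunicamycin also raised PALB2 (0.51), lost without 11 of the 20 arrays in turn. Hypoxia raised the large MAF gene MAF (2.11, lost without either 0 hr array) and lowered 2 regulators, a count of 0 to 2 with 1 array left out.

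Of 29 antioxidant enzymes not classed as NRF2 targets 26 were tested, and none was higher in any treatment by limma. At an unadjusted p under 0.05, 1 was higher in hypoxia, 1 with tunicamycin, 0 with emetine and 2 without UPF1. Passing at that p in either direction were 3354, 2490, 6847 and 4152 of all 14478 genes, in that order. Emetine lowered 11, where 19.8% of all genes were lower, with a median of -0.28 beside -0.08. HMOX2, the constitutive heme oxygenase, was -1.10, GLRX -0.80 and GPX3 -0.80, with HMOX2 and GLRX past the test in all cases of 1 array left out. GPX3 was lost and the 11 became 4 without the control array at 0 hr. Hypoxia lowered 5, where 4.44% of all genes were lower, among them HMOX2 (-0.71), TXNRD2 (-0.59) and GLRX2 (-0.55, lost without 11 of the 20 arrays in turn), a count of 0 to 6 with 1 array left out. UPF1 depletion lowered MSRB1 (-0.51), lost without either 0 hr array, and CAT (-0.42), lost without any 1 of 9 of the 20 arrays, and tunicamycin lowered 0 (4 at an unadjusted p under 0.05). With 1 array left out, up to 2 of these enzymes were higher in UPF1-depleted cells, namely for the control array at 1.5 hr and the tunicamycin arrays at 3 and 4.5 hr. Hypoxia and emetine were also the conditions with the ACTB difference of 2.04.

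Slope differences in these lists were counted in the same way. With emetine, where 14.4% of all genes passed, 1 of the 38 NRF2 targets did, TRIM16 (0.15 log2 per hour), with 5 of 21 regulators, led by PALB2 (0.48) and CHD6 (0.25), and 2 of 26 antioxidant enzymes, among them GLRX2 (0.23). With tunicamycin, where 5.24% of all genes passed, PALB2 (0.29), CREBBP (0.23) and GLRX2 (0.30) had flatter slopes than control and SESN2 a steeper one (-0.63). The PALB2 difference with emetine and the SESN2 difference with tunicamycin passed in all cases of 1 array left out, and the other 6 did not. With 1 array left out the emetine counts were 0 to 2 targets, 1 to 6 regulators and 0 to 3 enzymes with flatter slopes. Among these lists no slope difference was called by limma in hypoxia or in UPF1-depleted cells, where 5 and 6 of all genes were. At an unadjusted p under 0.05 the target, regulator and enzyme lists gave 1, 3 and 2 in hypoxia and 0, 1 and 0 in UPF1-depleted cells. Over all 14478 genes 1498 and 955 passed at that p.

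The genes most like a member over the 20 arrays were sought among the other 14477 genes by Pearson correlation of log2 signal, as a description, since the arrays share DRB times, conditions and normalisation. For BACH1 these were MASTL (0.976), SGMS1 (0.971) and GCLC (0.967), the last being itself a member. TMEM161B (0.974), ZC3H7A (0.956) and OSBP (0.956) came first for MAFF. For HMOX1 they were GIGYF2 (0.944), the chromatin remodeller CHD6 (0.943) and TRIP11 (0.942). Within the 10 members, BACH1 and MAFF correlated at 0.888, BACH1 and HMOX1 at 0.830, and NQO1 with BACH1 at -0.70. GCLM and BACH1 stood at -0.07.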

How the data were processed

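The authors deposited intensity values on a linear scale, made with RMA per the submitters' processing notes, whose version is not given in the sources used here. They were log2-transformed here, with no further normalisation. Of 54675 probe sets, 41097 name 1 gene symbol, 1801 several and 11777 none in the platform annotation, which left 19775 genes and 14478 above the filter. Limma 3.58.1 in R 4.3.3 was fitted to all 20 arrays with terms for each DRB time, each condition and the time trend of each treatment (12 coefficients, 8 residual degrees of freedom), and a second model gave a line per condition (10 coefficients). The fits were also run on simulated data with known shifts and independent noise. That cannot show whether the p-values hold with 1 array per condition and time. Members and lists were chosen with earlier results of these data known. Named were the 10 members, UPF1, up to 3 highest and 3 lowest passing genes per list and comparison, with the regulators and other antioxidants ranked as 1 list, and 3 most alike genes for BACH1, MAFF and HMOX1. Alternatives covered the filter, probe set choice, normalisation, centring, variance model, time model and each array left out.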

Additional observations from a re-analysis of the deposited data

Results flagged for a closer look

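The MAFF log2 signal with emetine at 0 hr, 13.03, stood apart from the other 3 emetine arrays, the nearest at 12.85 and the farthest at 12.83, a gap of 0.913 of the range. These 4 arrays are different DRB times and not repeats. It was 1 of 50 groups of 4 arrays examined, and chance flags about 1 in 20.

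Slope differences from control, in log2 per hour, passed the test of the difference itself for NFE2L2 with tunicamycin (0.25) and, with emetine, for NFE2L2 (0.38), HMOX1 (0.34), KEAP1 (0.27), SRXN1 (0.24), GCLC (0.21) and GCLM (0.15). The GCLM call was lost without any 1 of 12 of the 20 arrays. The call of NFE2L2 with tunicamycin, and those of HMOX1 and GCLC, were each lost without either of 2 arrays. With the median of probe sets both NFE2L2 calls and that of GCLC were lost.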

How the results depend on the processing

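No paired analysis was possible because the labels carry no replicate numbers; arrays of the same DRB time were matched across conditions by the time term of the model. With the median of each gene's probe sets, NFE2L2 in hypoxia reversed to a level difference of -0.49, GCLM with emetine to a slope difference of -0.0858, and the GCLM slopes to 0.15 in control and 0.14 in hypoxia and in UPF1-depleted cells. These follow from probe sets that disagree. Without the control array at 0 hr the MAFF slope difference in hypoxia was -0.0228 (range with 1 array left out -0.0228 to 0.208). Without the emetine array at 0 hr the HMOX1 level difference with emetine was -0.0966 (range to 0.938) and that of hypoxia from emetine 0.0987 (range from -0.935). Counts of members past the test also moved. With the median of probe sets they were 0 (level, tunicamycin), 3 (level, emetine), 1 (level, hypoxia and UPF1 depletion), 0 and 3 (slope difference, tunicamycin and emetine), and 4, 5 and 4 for emetine against hypoxia, tunicamycin and UPF1 depletion. Without probe sets that may cross-hybridise they were 1 for the levels in hypoxia and UPF1 depletion, 1 for hypoxia against tunicamycin or UPF1 depletion, and 4 for hypoxia or UPF1 depletion against emetine; MAFG and NQO1 have only such probe sets. Levels gave 1 in hypoxia and UPF1 depletion with the filter at the 60th percentile, 2 in hypoxia with quantile normalisation, and 2 and 3 with a trended, robust variance. Hypoxia against tunicamycin gave 1 without a filter or centred on ribosomal protein genes and 0 with straight lines, and ribosomal centring gave 8 slopes within hypoxia. The cause of these moves was not tested. Leaving out 1 array gave level counts of 0 to 1 in hypoxia, tunicamycin and UPF1 depletion and 3 to 6 with emetine. Slope difference counts were 0 to 0 in hypoxia and UPF1 depletion, 0 to 1 with tunicamycin and 3 to 6 with emetine. Pair counts were 0 to 2 for hypoxia against tunicamycin or UPF1 depletion, 1 to 8 for hypoxia against emetine, 2 to 9 and 0 to 4 for tunicamycin against emetine and UPF1 depletion, and 1 to 7 for emetine against UPF1 depletion. Slopes within condition counted 5 to 7 in control, 2 to 6 in hypoxia, 1 to 6 with tunicamycin, 0 to 0 with emetine and 2 to 6 without UPF1. Over single members, 4928 of 5232 values were counted as unchanged. That meant the same call and, where the main value was called or over 2 standard errors, the same sign. Smaller uncalled values could change sign and still count, as for MAFG in hypoxia (level difference -0.126, range -0.2254 to 0.1464). For the BACH1 and MAFF values with no test it meant a move of under 1 standard error. Over all genes, counts that moved by over 1.5 times were slope differences in hypoxia (5, against 0 to 54), UPF1 depletion (6, against 1 to 29) and tunicamycin (758, against 468 to 501), levels with tunicamycin (419, against 234 and 683) and hypoxia (1108, against 645), and slopes with emetine (57, against 123).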
